A study of Mus musculus with 13 samples.

Results

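Thy1 is the mouse gene whose regulatory sequence drives the transgenes of the 5XFAD line, and its RNA level was followed in every library of a frontal cortex series. The gene was taken by its identifier, ENSMUSG00000032011, and is 1 of 55536 genes in the deposited tables. It lies on the forward strand of chromosome 9 from base 44043384 to base 44048579 of GRCm38. Its longest annotated transcript, the protein-coding Thy1-201, has 4 exons and 1735 bases.

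Thy1 encodes a small glycoprotein of the immunoglobulin superfamily that is held in the outer leaf of the plasma membrane by a glycosylphosphatidylinositol (GPI) anchor. In the mouse brain it is a surface protein of mature neurons, and outside neurons it is known from T lymphocytes and fibroblasts. It binds integrins and syndecan-4 on neighbouring cells and gathers in membrane rafts, where Src family kinases act inside the cell.

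The series compared RNA sequencing libraries of frontal cortex from 5XFAD and wild-type (WT) mice. There were 3 libraries of 5XFAD at 11 months, 3 of 5XFAD at 6 months, 3 of WT at 11 months and 4 of WT at 6 months. The labels give the strain of the WT mice as B6SJLF1/J and that of the transgenic mice only as 5XFAD, with no sex. Whether each library stands for its own animal is not stated, so the p-values refer to library-to-library spread, part of which can be technical. 5XFAD is a model of amyloid deposition that carries mutated human transgenes, APP among them, in a cassette of mouse Thy1 sequence which is active mainly in neurons. RNA of the endogenous gene and RNA of the cassette cannot be told apart in a count per gene.

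Library totals ran from 23618289 to 26615772 expected counts, and the mitochondrial share from 7.89% to 11.4%. The tissue label was checked on marker genes. The summed level of 15 pan-neuronal genes was 10210 to 10642 CPM in 5XFAD at 11 months, 11642 to 12621 in 5XFAD at 6 months, 9343 to 11275 in WT at 11 months and 10264 to 12719 in WT at 6 months. The summed level of 8 striatal markers was 406 to 1056 CPM in 5XFAD at 11 months and 794 to 2453 in 5XFAD at 6 months, against 408 to 3765 in WT at 11 months and 1765 to 4246 in WT at 6 months. All 8 had negative log2 fold changes of 5XFAD over WT at both ages (medians -1.13 at 11 months and -0.56 at 6 months), with 0 past edgeR's test and 0 at an unadjusted p under 0.05. The 5 measured choroid plexus markers were all negative at 6 months (median -2.41), with 0 past the test and 2 at an unadjusted p under 0.05; their sum reached 33.3 CPM in 5XFAD at that age and 2966 CPM in replicate 1 of WT. Without that WT library the log2 fold change of Thy1 at 6 months, given below for all libraries, was 1.94. The part of the striatal markers in the results for Thy1 was not tested.

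Thy1 was among the most abundant transcripts of the cortex in every library, and stood several-fold higher in 5XFAD. In 5XFAD at 11 months the 3 libraries had 8111, 5099 and 7351 TPM (a level scaled for transcript length and library size). In WT at 11 months the values were 1403, 1007 and 982 TPM. At 6 months the levels were 7795, 6063 and 6473 TPM in 5XFAD, against 1463, 1407, 1312 and 1499 TPM in WT. The lowest 5XFAD library, replicate 2 at 11 months, was still more than the highest WT library, and the genotypes did not overlap at either age.

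Among genes not encoded by the mitochondrial genome, Thy1 held ranks 6 to 10 by TPM in the 5XFAD libraries and ranks 41 to 62 in the WT libraries. Its mean TPM was higher in 5XFAD by 5723 at 11 months and by 5357 at 6 months, which in both cases was the largest increase of any gene outside the mitochondrial genome. In fold it was far from the top: it ranked 126 among the 665 genes called higher at 11 months and 50 among the 228 called higher at 6 months. A gene was called when the adjusted p of edgeR's quasi-likelihood test was under 0.05.

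As CPM (counts relative to the TMM-scaled library total, with no correction for length), Thy1 reached 3250, 2155 and 3056 in 5XFAD at 11 months, against 638, 550 and 543 in WT. At 6 months it reached 3143, 2492 and 2682 CPM in 5XFAD, against 730, 748, 639 and 783 CPM in WT. The log2 fold change was 2.29 ± 0.15 (standard error) at 11 months, with adjusted p = 1.24e-06 from edgeR, and 1.93 ± 0.14 at 6 months, with adjusted p = 5.27e-06. All genotype comparisons of Thy1 thus passed the test, in a background where 4.31% of 17483 tested genes were called at 11 months and 1.32% at 6 months. As a share of all counts, Thy1 took 0.327%, 0.210% and 0.296% in 5XFAD at 11 months, against 0.0666%, 0.0536% and 0.0552% in WT of that age.

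**Figure D1:**
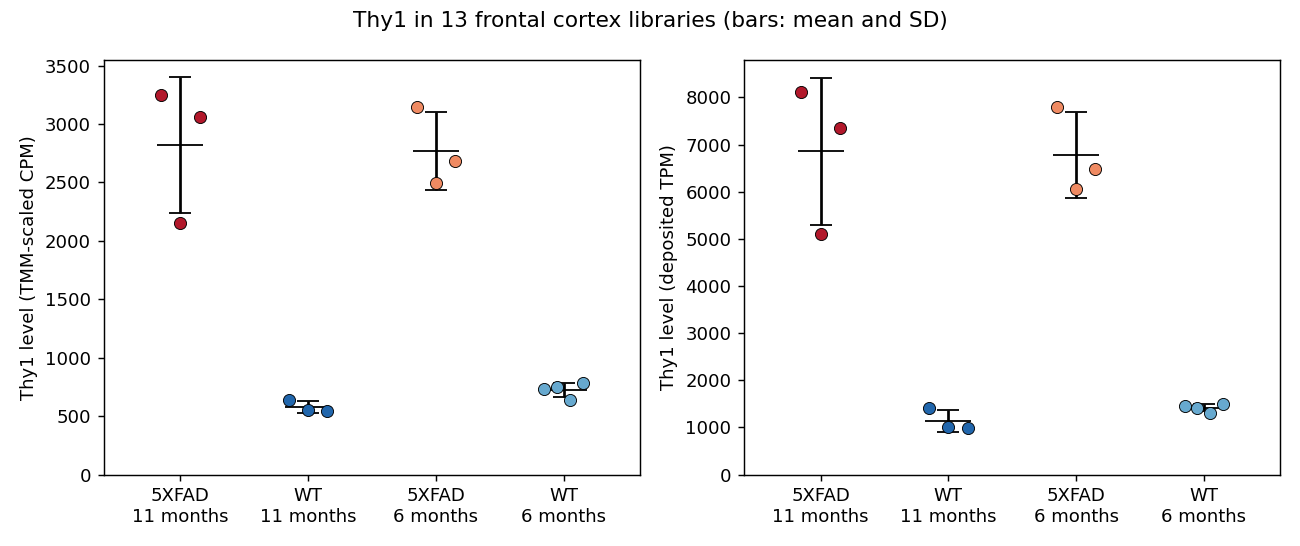
Thy1 in each library (points) with the group mean and SD (bars), as scaled CPM on the left and as deposited TPM on the right; groups are 5XFAD and WT at 11 and at 6 months. The 6 5XFAD libraries lie between 2155 and 3250 CPM, and the 7 WT libraries between 543 and 783 CPM.

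The order of the group means was 5XFAD at 11 months (2820 ± 585 CPM, SD, n = 3), 5XFAD at 6 months (2772 ± 335, n = 3), WT at 6 months (725 ± 61.2, n = 4) and WT at 11 months (577 ± 53.3, n = 3). Within 5XFAD the ages differed by less than the spread between libraries: the log2 fold change of 11 over 6 months was 0.02 ± 0.15, with adjusted p = 0.939 from edgeR. Within WT it was -0.33 ± 0.14, with an unadjusted p of 0.0311 and adjusted p = 0.165 from edgeR, where 3.71% of genes were called in WT and 7.23% in 5XFAD. The difference between the genotype effects of the 2 ages was 0.35 ± 0.20 and did not pass the test (adjusted p = 0.9995 by edgeR, unadjusted p = 0.0981); 1 gene of all those tested, 0.00572%, was called for this difference.

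The 5XFAD libraries differed among themselves more than the WT libraries did. The coefficient of variation of Thy1 was 20.7% in 5XFAD at 11 months and 12.1% in 5XFAD at 6 months, against 9.25% in WT at 11 months and 8.44% in WT at 6 months. The SD of log2 CPM was 0.320 in 5XFAD at 11 months, which was larger than that of 92.7% of the 41 genes within 1 log2 unit of its level. In 5XFAD at 6 months it was 0.171, larger than 81.0% of 42 such genes. In WT the SD was 0.130 at 11 months, larger than 31.6% of 414 genes, and 0.125 at 6 months, larger than 50% of 292 genes. The difference in spread between genotypes was not tested.

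Sex, read from the level of Xist, was unevenly placed. All 3 5XFAD libraries at 6 months were male, and at 11 months replicate 2, the lowest for Thy1, was the male library among 2 female ones. With sex as a covariate the log2 fold change of Thy1 was 2.20 at 11 months and 2.05 at 6 months, with adjusted p of 2.50e-06 and 5.13e-06 by edgeR. The interaction fell to 0.14 in that fit.

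A second readout of Thy1 was the length that the authors' quantifier assigned to the gene, which is the mean length of its isoforms weighted by their estimated abundance. The annotation holds 6 Thy1 transcripts of 446 to 1735 bases. Of these, 4 end before the last exon of Thy1-201 begins, and the 449-base Thy1-203 lies within that exon. A shorter mean length means that a larger share of the estimated molecules was assigned to short transcripts.

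In 5XFAD the assigned length was 761, 785 and 752 bases at 11 months and 737, 752 and 749 bases at 6 months. In WT it was 916, 956 and 1014 bases at 11 months and 921, 973, 905 and 957 bases at 6 months. Every 5XFAD library lay below every WT library. The mean was 756 bases in 5XFAD and 950 in WT, a difference of -195 bases (exact two-sided permutation test within ages, p = 0.00143, the smallest that the 700 arrangements allow). At 11 months alone the difference was -196 bases (766 ± 17.0 in 5XFAD against 962 ± 49.4 in WT, SD, n = 3 each), where 3 against 3 libraries cannot give an exact permutation p under 0.1. At 6 months alone it was -193 bases (746 ± 7.70 in 5XFAD, n = 3, against 939 ± 31.3 in WT, n = 4; exact permutation p = 0.0286, the smallest possible).

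These lengths set an upper limit on the share of the full-length transcript among the molecules assigned to Thy1. It is reached if all other such molecules had the shortest annotated length. The limit was 22.6% to 26.3% in the 5XFAD libraries and 35.6% to 44.1% in the WT libraries. The estimates per isoform were not analysed here, and the limit rests on the authors' assignment of reads to annotated transcripts. In 5XFAD the assigned molecules may include RNA of the cassette. A length per gene cannot tell it apart from RNA of the endogenous gene.

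Few other genes changed length in this way. Of 14350 tested genes with more than 1 isoform, 51 (0.355%) were shorter in every 5XFAD library than in every WT library at both ages, and 36 (0.251%) were longer. Regardless of overlap, 80 of the 14350 had a larger mean decrease than Thy1. Among the 51, Thy1 (log2 length ratio -0.33) had the second largest decrease after Igf1 (-1.11), a growth factor gene measured at a mean of 10.52 CPM; Igf1 was named after its value was seen. Among the 302 such genes with a mean of at least 363 CPM, none had a larger decrease than Thy1, and the next was -0.21.

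**Figure D2:**
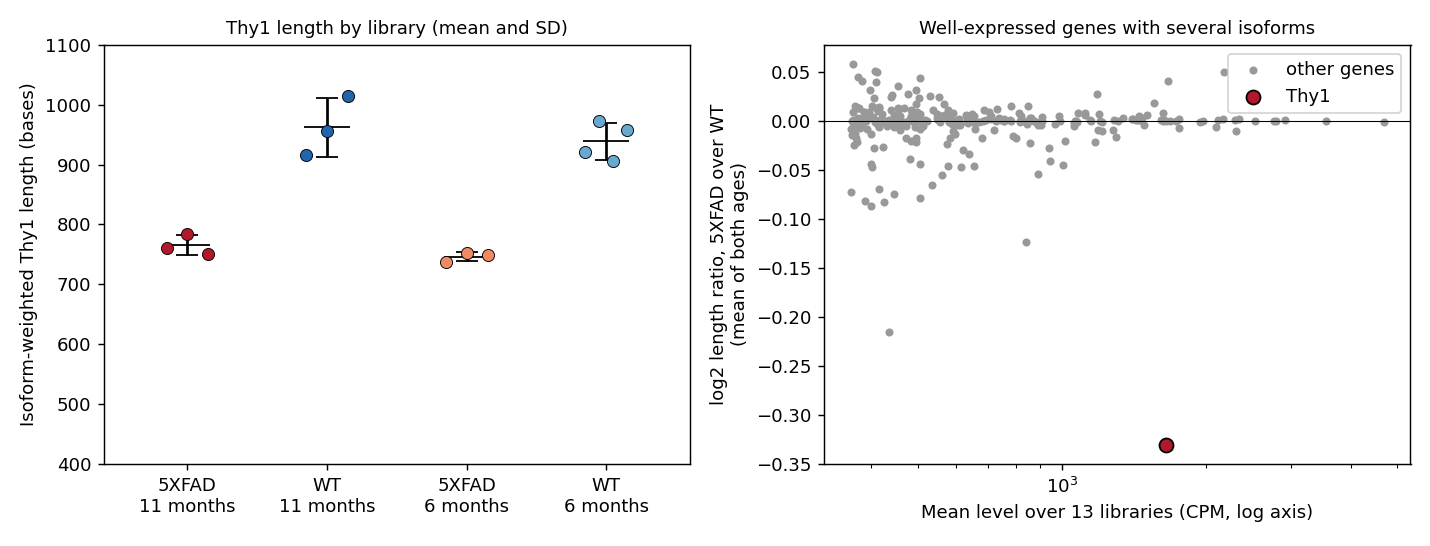
Left, the isoform-weighted length of Thy1 in bases for each library (points), with group mean and SD. Right, the log2 ratio of length in 5XFAD over WT, averaged over both ages, against the mean level (log axis) for the 302 well-expressed genes with several isoforms; Thy1 lies at -0.33, below all others, of which the lowest is at -0.21.

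Since TPM divides by length, the shorter assigned length raised the fold on that scale. The ratio of group means was 6.06 in TPM and 4.89 in CPM at 11 months, and 4.77 in TPM and 3.82 in CPM at 6 months.

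No other measured gene within 1 Mb of Thy1 on chromosome 9 was called with a change of its size. No measured gene overlaps Thy1, and 50 others were measured within 1 Mb. Their median log2 fold change was -0.07 at both ages, with a range of -1.05 to 2.39 at 11 months and -1.59 to 0.40 at 6 months. The values 2.39 ± 1.68 and -1.59 ± 1.35 belonged to the weakly expressed pseudogene Gm9830. It was not called at either age and was named after its values were seen. At 11 months 3 of the 50 (6.0%, against 4.31% of all genes) were called, and at 6 months 1 (2.0%, against 1.32%). These were Rps25, a ribosomal protein gene (0.34 ± 0.09 at 11 months and 0.36 ± 0.08 at 6 months), Kmt2a, a histone methyltransferase gene (-0.50 ± 0.11 at 11 months), and Trappc4, a vesicle tethering gene (-0.42 ± 0.10 at 11 months). They were named after their values were seen, and they lie 355 kb or more from Thy1. Rps25 and Trappc4 overlap on opposite strands, so without a stated strand setting their reads may be shared.

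The nearest measured genes showed no called change. Downstream these were Gm49380 (17.7 kb away, 0.61 ± 0.83 at 11 months and 0.27 ± 1.04 at 6 months), Usp2, a ubiquitin protease gene at 18.4 kb, and Rnf26, a ubiquitin ligase gene at 47.1 kb. Usp2 stood at 0.05 ± 0.09 at 11 months and 0.04 ± 0.08 at 6 months, and Rnf26 at 0.16 ± 0.09 and -0.03 ± 0.08. Upstream the nearest were Nectin1, an adhesion gene 236 kb away (-0.29 ± 0.19 and -0.21 ± 0.18), Gm30015 (-0.20 ± 0.44 and -0.27 ± 0.44) and Gm36855 (0.15 ± 0.36 and 0.23 ± 0.33). Usp2 and Rnf26, with standard errors of at most 0.09, lay far below the change of Thy1. Gm49380 overlaps both of them, so its few reads may be shared.

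**Figure D3:**
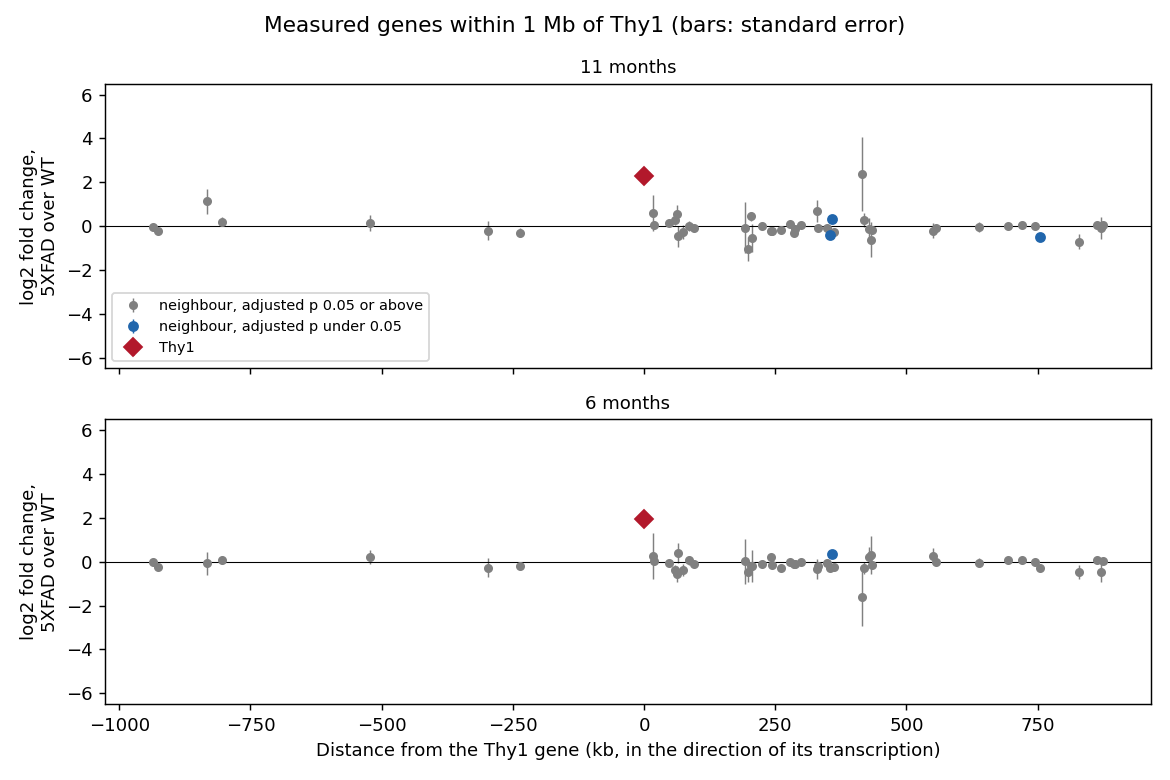
Log2 fold change of 5XFAD over WT, with standard error, of the 50 measured genes within 1 Mb of Thy1 against their distance from it in kb, at 11 months (top) and 6 months (bottom). Thy1 (diamond) stands at 2.29 and 1.93, while Rps25, Kmt2a and Trappc4 (filled blue, those called) lie within 0.50 of 0.

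No pan-neuronal gene was called beside Thy1. Of 15 pan-neuronal genes, 0 were called at either age by edgeR, by DESeq2 or by limma on log2 TPM, and 0 had an unadjusted p under 0.05. Their medians were 0.05 at 11 months and 0.07 at 6 months, beside -0.03 and -0.01 over all genes, and their highest values were 0.28 and 0.30. The vesicle fusion gene Snap25, for example, had 2740 ± 185 CPM in 5XFAD and 2606 ± 587 CPM in WT at 11 months (SD, n = 3 each). Uchl1, a neuronal ubiquitin hydrolase gene, had 649 ± 77.7 CPM in 5XFAD and 584 ± 107 CPM in WT.

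Excitatory neuron genes (10 measured, medians 0.15 and 0.09) and genes of layer 5 projection neurons (7 measured, medians -0.18 and 0.09) also had 0 called by all 3 tools. The excitatory list had 1 gene with an unadjusted p under 0.05 at 11 months and 0 at 6 months, and the layer 5 list had 0 at both. Without replicate 2 of WT at 11 months, 2 excitatory genes were called, in opposite directions: the kinase gene Camk2a at 0.62 and the vesicular glutamate transporter gene Slc17a6 at -1.65. With all libraries Camk2a stood at 0.13 ± 0.26, Slc17a6 at -1.20 ± 0.52, and Nrgn, a postsynaptic calmodulin-binding gene, at 0.26 ± 0.23. In layer 5, the calmodulin regulator gene Pcp4 stood at -0.18 ± 0.36 and the thyroid hormone-binding gene Crym at 0.00 ± 0.43. Of 10 inhibitory neuron genes (medians -0.35 and -0.12), 0 were called by edgeR at either age and 1 by DESeq2 at 11 months, with 2 at an unadjusted p under 0.05 at 11 months and 1 at 6 months. At 11 months 1 of the 10 had a positive value. Without replicate 2 of WT at that age 2 were called lower, the neuropeptide gene Sst (-0.73, adjusted p = 0.00752 by edgeR) and the noncoding RNA gene Dlx6os1 (-1.33), which stood at -0.47 ± 0.21 and -1.04 ± 0.35 with all libraries. In bulk tissue, fewer cells of a type and less RNA per cell cannot be told apart.

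App, the mouse gene of the amyloid precursor, passed the test at neither age. It had 1268, 1435 and 1169 CPM in 5XFAD at 11 months, against 1306, 1085 and 1259 CPM in WT, and the groups overlapped. Its log2 fold change was 0.09 ± 0.11 at 11 months and -0.08 ± 0.10 at 6 months (adjusted p = 0.764 and 0.880 by edgeR). Alignment was to GRCm38, and reads of the human APP transgene may have been counted in App or lost. Their share was not tested.

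Other GPI-anchored surface genes of neurons had medians near 0, as did the genes of the enzymes that build the anchor. Of 22 neuronal GPI-anchored genes, 0 were called higher at either age, 1 was called lower at 11 months and 0 at 6 months, with medians of -0.05 and -0.04. The unadjusted p was under 0.05 for 3 genes at 11 months and for 1 at 6 months. The one called was Nrn1l, a relative of the neurite growth gene Nrn1, which is weakly expressed. It had 0.688, 0.887 and 0.620 CPM in 5XFAD at 11 months, against 2.07, 1.29 and 3.54 CPM in WT (-1.65 ± 0.41, adjusted p = 0.0330 by edgeR). The groups did not overlap, but the call was lost when any 1 of the 5 libraries other than replicate 2 of WT at that age was left out (adjusted p up to 0.161), with sex as a covariate (0.0661), and in a fit of the compared libraries alone (0.108).

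Of 23 measured genes of GPI anchor synthesis and attachment, 0 were called at either age by edgeR, DESeq2 or limma. Unadjusted p was under 0.05 for 1 at 11 months and 2 at 6 months, and the medians were -0.05 and -0.02. Pigp and Pigq, subunits of the enzyme of the first step, stood at 0.04 ± 0.14 and -0.10 ± 0.10 at 11 months. The most extreme of the 23 values at 11 months were -0.30 and 0.20, both far from the 2.29 of Thy1.

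Among the counter-receptors of Thy1, the integrin genes Itgax, Itgb2, Itgb5 and Itgam were higher in 5XFAD. Of 10 measured partner genes, 4 were called higher at 11 months and 3 at 6 months, with none lower, against 3.80% and 1.30% of all genes called higher and 0.503% and 0.0172% called lower. Their medians were 0.66 and 0.52. Itgax, the integrin alpha chain of CD11c, had 36.0, 27.2 and 47.9 CPM in 5XFAD at 11 months, against 0.478, 0.404 and 0.291 CPM in WT. At 6 months it had 7.04, 12.99 and 12.98 CPM in 5XFAD, against 0.369, 0.325, 0.272 and 0.123 CPM in WT. No library of one genotype reached the range of the other.

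The log2 fold change of Itgax was 6.54 ± 0.35 at 11 months and 5.31 ± 0.33 at 6 months (adjusted p = 3.48e-07 and 2.63e-06 by edgeR). Itgax also belongs to the disease-associated microglia list, of which 24 of 28 genes were called higher at 11 months and 21 at 6 months. The part of that microglial rise in the calls of the partner genes was not tested. Itgb2, the beta chain that pairs with the chains of Itgax and Itgam, had 32.0, 25.1 and 42.6 CPM in 5XFAD at 11 months, against 5.74, 9.09 and 7.74 CPM in WT. Its log2 fold change was 2.14 ± 0.19 at 11 months and 1.51 ± 0.17 at 6 months (adjusted p = 9.01e-06 and 0.000234 by edgeR).

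Itgam, the alpha chain of CD11b, had 42.8, 36.1 and 61.3 CPM in 5XFAD at 11 months, against 14.1, 28.2 and 21.5 CPM in WT (1.13 ± 0.23, adjusted p = 0.0112 by edgeR). Its adjusted p was 0.0567 without replicate 3 of 5XFAD at 11 months and 0.123 in a fit of the compared libraries alone. At 6 months it stood at 0.96 ± 0.22 (adjusted p = 0.0510) and was called under 7 alternatives, among them DESeq2 (0.00110), the compared libraries alone (0.00131) and the omission of replicate 1 or 2 of WT or 2 or 3 of 5XFAD at 11 months (0.0112 to 0.0413). Itgb5, a beta chain that pairs with Itgav, rose by 1.12 ± 0.16 at 11 months and by 0.80 ± 0.15 at 6 months (adjusted p = 0.000746 and 0.0155 by edgeR). The call of Itgb5 at 6 months was lost without replicate 2 or 4 of WT or replicate 3 of 5XFAD at that age (adjusted p up to 0.108), and with sex as a covariate (0.0590).

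None of the other 6 partners passed at 11 or at 6 months. Itgb3, the integrin beta chain bound by Thy1 on astrocytes, stood at 0.91 ± 0.25 at 11 months (adjusted p = 0.0647). Itgav, its alpha chain, stood at -0.10 ± 0.12, and Sdc4, the gene of syndecan-4, at 0.29 ± 0.13. Adgre5, an adhesion receptor gene, stood at -0.32 ± 0.20, and the integrin chain genes Itga5 and Itgb1 at 0.41 ± 0.51 and 0.20 ± 0.09. These 6 were outside the rule for named genes. With age, 6 of the 10 partners were called higher at 11 than at 6 months in 5XFAD, against 4.84% of all genes, and 2 in WT, against 2.42%. In 5XFAD the libraries of these ages also differed in sex. The count in 5XFAD was 2 without replicate 3 at 11 months or replicate 1 at 6 months, and 3 without replicate 1 at 11 months or replicate 2 at 6 months. That in WT was 7 without WT replicate 1 at 11 months and 0 without any 1 of 7 other libraries, which were 5XFAD replicate 1 and WT replicate 2 at 11 months, and 5XFAD replicates 2 and 3 and WT replicates 1, 2 and 4 at 6 months.

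Among 8 genes of raft signalling, only the Src family kinase gene Lyn was called, at 11 months (1.31 ± 0.21, adjusted p = 0.00172 by edgeR), against 4.31% of all genes. Lyn had 12.8, 14.2 and 18.4 CPM in 5XFAD, against 4.38, 8.36 and 5.54 CPM in WT. At 6 months, where 1.32% of all genes were called, 0 of the 8 were called by edgeR and 1 by DESeq2, with 1 at an unadjusted p under 0.05. Lyn then stood at 0.81 ± 0.20 (adjusted p = 0.0745), and was called under 5 alternatives (adjusted p 0.0106 to 0.0339), DESeq2 among them. Fyn, the kinase most often tied to Thy1 in neurons, stood at 0.23 ± 0.08 at 11 months (adjusted p = 0.161) and 0.04 ± 0.08 at 6 months; it was outside the rule for named genes.

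**Figure D4:**
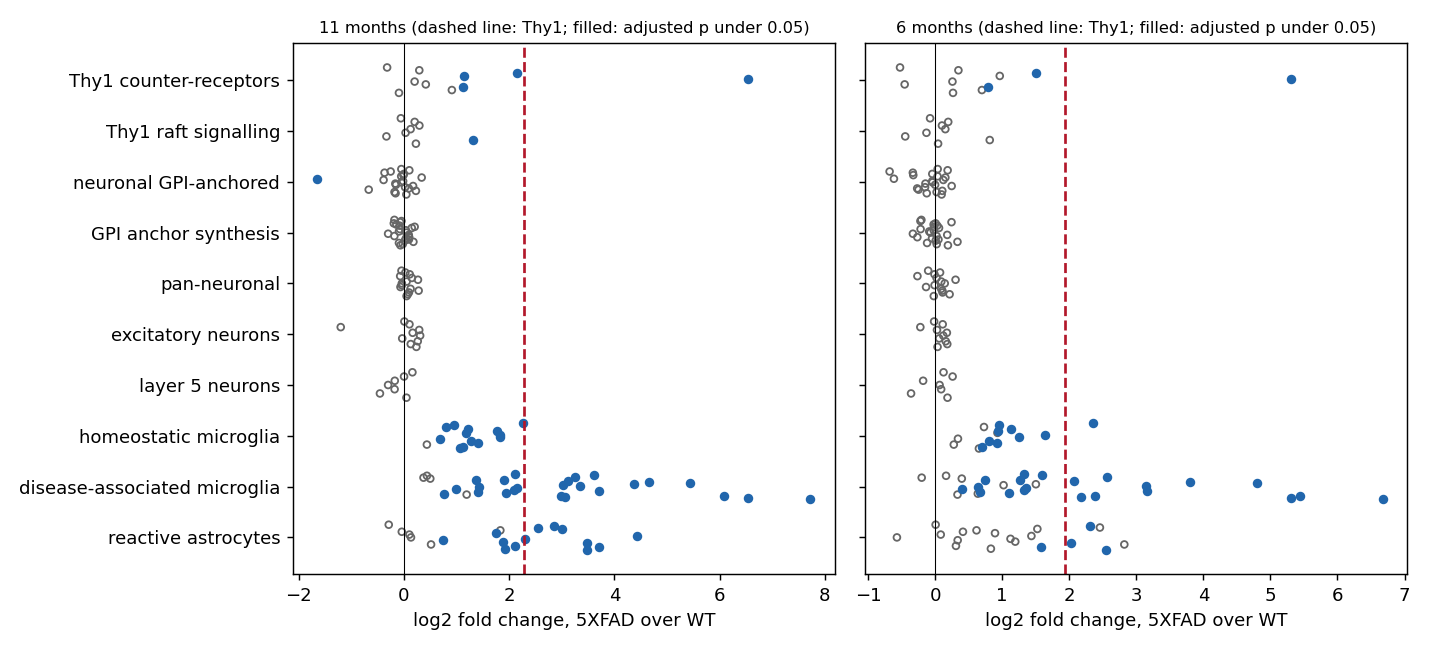
Log2 fold change of 5XFAD over WT for the measured members of 10 gene lists at 11 months (left) and 6 months (right); filled points passed the edgeR test and the dashed line marks Thy1. In the neuronal and anchor lists Nrn1l alone is filled, at -1.65, while integrin counter-receptors and glial lists hold filled points up to 6.54 (Itgax) and 7.73 (Cst7).

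Cells other than neurons that carry Thy1 were checked through their markers. Of 12 T lymphocyte genes, 5 passed the filter on low counts. Of these 5, 2 had positive log2 fold changes at 11 months (median -0.03) and 1 at 6 months (median -0.31). The defining genes Cd3d, Cd3e and Cd3g had 2 to 5, 4 to 13 and 5 to 14 counts per library in 5XFAD at 11 months, and at most 3 in 5XFAD at 6 months. In WT they had at most 2 counts at 11 months and 4 at 6 months, and Cd3d was at 0 in 8 of the 13 libraries. Cd5, a lymphocyte surface gene, was the 1 of the 5 called, at 11 months (3.11 ± 0.66, adjusted p = 0.0105 by edgeR; 4.31% of all genes were called), on 12 to 23 counts in 5XFAD and 1 to 3 in WT. Its adjusted p was 0.0538 without replicate 1 of WT and 0.0560 without replicate 3 of 5XFAD at that age. The number of the 12 called was 2 with no filter on low counts, with log2(TPM + 1), and without any 1 of the 3 5XFAD libraries at 6 months, and 0 without replicate 1 of WT at 11 months. Of 9 meningeal and fibroblast genes 0 were called by edgeR, DESeq2 or limma, with 0 at an unadjusted p under 0.05 at 11 months and 3 at 6 months. Positive log2 fold changes were found for 3 of the 9 at 11 months (median -0.12) and for 1 at 6 months (median -0.69). Thy1 itself held 53436 to 80337 counts in the 5XFAD libraries and 13035 to 19164 in the WT libraries. The part of these cells in the level of Thy1 was not tested.

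The level of Thy1 was then set beside the glial response, which rose with genotype. Called higher in 5XFAD were 24 of 28 genes of disease-associated microglia at 11 months and 21 at 6 months (medians 2.57 and 1.34), 13 and 9 of 14 homeostatic microglia genes (medians 1.20 and 0.93), and 13 and 4 of 19 reactive astrocyte genes (medians 1.93 and 1.12). Of all genes, 3.80% were called higher at 11 months and 1.30% at 6 months. The homeostatic count at 6 months was 4 or 5 without any 1 of replicates 1 to 4 of WT or of replicates 2 and 3 of 5XFAD at that age, and 5 with sex as a covariate. That at 11 months was 8 in a fit of the compared libraries alone, and DESeq2 called 7 reactive astrocyte genes at 6 months. Cst7, a cysteine protease inhibitor gene of activated microglia, had 61.3 ± 12.1 CPM in 5XFAD and 0.284 ± 0.107 CPM in WT at 11 months (SD, n = 3 each). Gfap, the astrocyte filament gene, had 1263 ± 71.2 CPM in 5XFAD and 113 ± 24.1 CPM in WT.

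Within 5XFAD many glial genes rose with age, and Thy1 did not pass that test. At 11 over 6 months, 19 of the 28 disease-associated microglia genes and 10 of the 19 reactive astrocyte genes were called higher in 5XFAD, against 4.84% of all genes, with medians of 0.81 and 1.02, while Thy1 stood at 0.02 ± 0.15. These counts moved with single libraries: without replicate 3 of 5XFAD at 11 months they were 7 and 5, and the number called over all genes was 97 against 1264. The microglial count was 9 without replicate 1 of 5XFAD at 6 months, and the astrocyte count was 5 or 6 without replicate 2 or 3 of 5XFAD at 6 months or replicate 1 at 11 months. Age and sex were also entangled here, since all 5XFAD libraries at 6 months were male, and at 11 months only replicate 2 was. With sex as a covariate the number called over all genes was 881. A score per library, the mean deviation of a list's genes from their mean over all libraries in log2 CPM, gives the level in each library. For disease-associated microglia it was 1.81, 1.46 and 1.98 in 5XFAD at 11 months, 0.674, 0.809 and 0.912 in 5XFAD at 6 months, and between -1.26 and -0.977 in WT. The 5XFAD libraries of 11 months all lay above those of 6 months in this score, whereas the 2 ages overlapped for Thy1.

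Between libraries of 1 group, no relation of Thy1 to the scores was detectable at these numbers. Deviations from the group means were compared within each genotype, 6 relations in all, by exact permutation of libraries within ages. In the 6 5XFAD libraries Pearson's r with the disease-associated score was 0.58 (exact p = 0.472; Spearman's rho 0.37, exact p = 0.694). It was 0.41 with the homeostatic score (exact p = 0.694; rho 0.09, exact p = 0.917) and 0.50 with the reactive astrocyte score (exact p = 0.0833; rho 0.66, exact p = 0.111). Without the 2 libraries farthest from the Thy1 median over both ages, replicate 2 at each age, these became -0.35, -0.34 and 0.58. Deviations were still taken from group means that held those 2 libraries. This omission thus cannot show whether r within groups rested on them.

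In the 7 WT libraries r was -0.43 with the disease-associated score (exact p = 0.444; rho -0.61, exact p = 0.188) and -0.53 with the homeostatic score (exact p = 0.431; rho -0.39, exact p = 0.5). With the reactive astrocyte score it was -0.81 (exact p = 0.0625, and rho -0.64, exact p = 0.208). The 3 values were -0.28, -0.63 and -0.74 without replicate 4 at 6 months and replicate 3 at 11 months. Those were farthest from the Thy1 median over both ages. Kept were replicate 3 at 6 months and replicate 1 at 11 months, which deviated most from their group means in Thy1 (-0.18 and 0.15). Group means still held the omitted libraries, so this omission cannot show whether r rested on extreme libraries. With all 7 WT libraries the 3 values of r moved with the scale. They were -0.03, -0.81 and -0.27 on log2(TPM + 1), and -0.10, -0.72 and -0.56 with library totals in place of TMM scaling. Adjusted over the 6 relations by Benjamini-Hochberg, exact p-values ran from 0.250 to 0.694. No pooled r of Thy1 with the scores is given, since the genotypes form separate clusters.

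**Figure D5:**
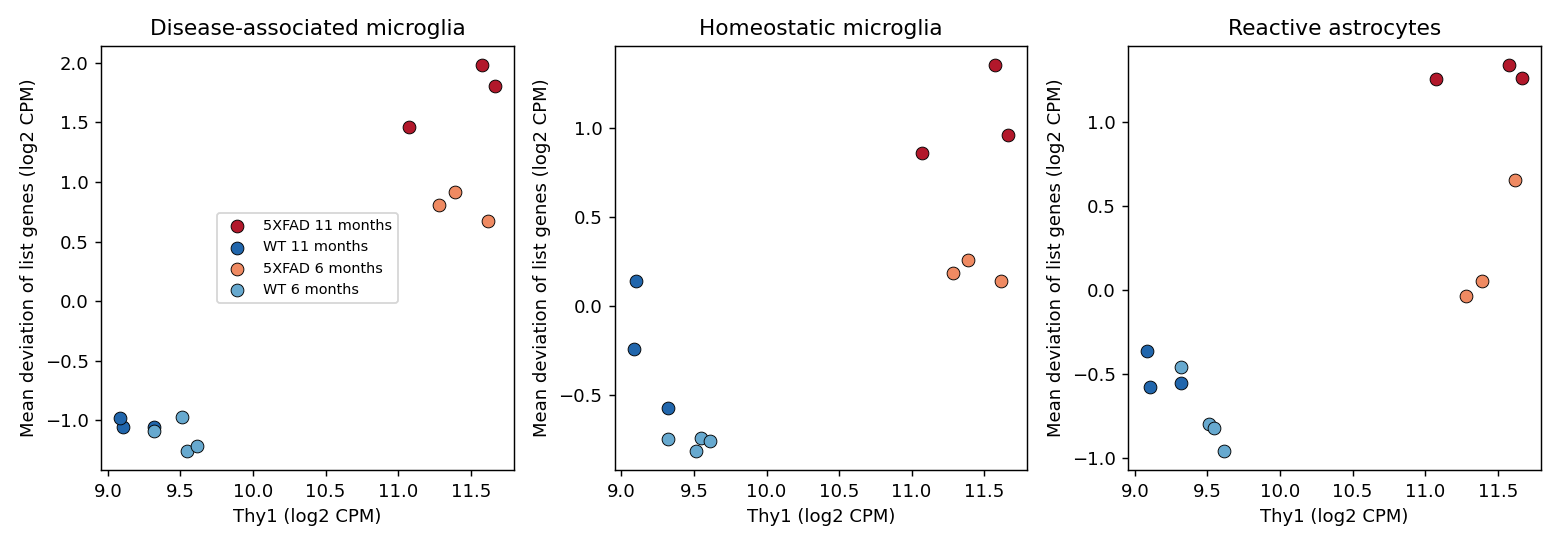
Thy1 (log2 CPM) against the mean deviation of disease-associated microglia, homeostatic microglia and reactive astrocyte genes (log2 CPM) in each of the 13 libraries. WT libraries lie at the left, and 5XFAD libraries at the right. WT lies below 5XFAD except in the homeostatic panel, where replicate 2 of WT at 11 months (0.138) is just above replicate 1 of 5XFAD at 6 months (0.137). Among 5XFAD libraries, the 11-month ones (dark red) stand above the 6-month ones (light red) at a like level of Thy1. Replicate 2 of 5XFAD at 11 months has the lowest Thy1 of them (11.07).

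The genes whose pattern was most like that of Thy1 were ranked by Pearson's r of log2 CPM over the 13 libraries, as a description that mostly follows genotype. Of 14619 named genes, 53 had an r over 0.9, and the median r was -0.02. The highest were Cd52, a leukocyte surface gene that is also GPI-anchored (0.98), the chemokine gene Ccl6 (0.96), the survival gene Bcl2a1b (0.96), the elastase gene Mmp12 (0.96) and the inhibitory receptor gene Lilrb4a (0.96). Mmp12 was near the detection limit, with 0.212 to 0.647 CPM in 5XFAD and 0 CPM in 5 of the 7 WT libraries. Bcl2a1b and Lilrb4a have near-identical copies, so their reads may be shared with them. The lowest were Hip1r, an endocytic adaptor gene (-0.94), Atp8b2, a phospholipid transporter gene (-0.91), Tanc2, a synaptic scaffold gene (-0.90), Dhx30, an RNA helicase gene (-0.90), and Zfp879, a zinc finger gene (-0.88). Of the 61 measured genes on the 3 glial lists, 18 had an r over 0.9, and the median of the 61 was 0.82. These lists were chosen with earlier results known and mostly held genes higher in 5XFAD, as Thy1 was. Their high r was thus set in advance and shows no relation beyond genotype.

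Once group means were removed, other genes came first. In deviations from group means over the 13 libraries, the highest r belonged to Ndufb4, a respiratory complex I gene (0.92), the apoptosis repressor gene Nol3 (0.92), Cage1 (0.92), the vesicle traffic gene Rab26 (0.92) and the ciliary gene Bbs10 (0.91), and 6 genes were over 0.9. Of the genes leading the first ranking, Cd52 had a log2 fold change of 3.25 ± 0.25 at 11 months and 2.57 ± 0.22 at 6 months. Ndufb4 stood at 0.36 ± 0.12 and 0.16 ± 0.11, neither of which passed the test (adjusted p = 0.126 and 0.740 by edgeR). Nol3, with an r of 0.79 in the first ranking, was called at 11 months (0.56 ± 0.12, adjusted p = 0.0158 by edgeR) and stood at 0.13 ± 0.11 at 6 months. Its call was lost without replicate 3 of WT or replicate 1 or 3 of 5XFAD at 11 months, on both TPM scales and in a fit of the compared libraries alone (adjusted p up to 0.127).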

How the data were processed

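RNA sequencing libraries of frontal cortex were read as 13 deposited tables, 1 per library. The authors aligned reads with STAR 2.7.1 to GRCm38 and quantified genes with RSEM, per the submitters' processing notes. Neither the version of RSEM nor its annotation and strandedness were stated in the labels. The authors' deposited expected counts per gene, of which 7.24% to 7.71% per library were not whole, were rounded to whole numbers and tested. The deposited TPM values, scaled by the authors' quantifier for length and depth, give levels and 2 alternatives. The deposited FPKM column was not used. The deposited gene length, per the file headers in bases, is a mean over isoforms. Symbols, coordinates and transcripts came from GENCODE M21, to which all 55536 identifiers matched; 34552 of 34552 genes with 1 isoform had the annotated length, within 0.5 bases.

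Groups came from titles. Genes passing filterByExpr (minimum count 10, minimum total 15) numbered 17483. A model with 4 group means over all 13 libraries was fitted in edgeR 4.0.16 (R 4.3.3) with TMM scaling and the robust quasi-likelihood test, Benjamini-Hochberg adjusted over all tested genes; standard errors are the fold change over the root of F. DESeq2 1.42.0 and limma 3.58.1 on log2(TPM + 1) or log2(TPM + 0.1), with a mean TPM of at least 0.1, were alternatives. The fit was tested on simulated counts. log2 CPM used a prior count of 2. Female libraries had over 10 CPM of Xist. Thy1, the gene lists and the tests were chosen with earlier results of these data known. Named were the called members of a list, at most 4 by lowest p, or else up to 2 with the highest TPM; the nearest 3 measured genes on each side of Thy1; and the 5 most and 5 least like it. App, Fyn, Cd3d, Cd3e, Cd3g, Slc17a6, Dlx6os1, the 6 partners not called and genes said to be named after their values were seen fall outside this rule. Not all list members so ruled are printed.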

Additional observations from a re-analysis of the deposited data

Results flagged for a closer look

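The effect of genotype differed between the ages for 1 named gene, Serpina3n, a protease inhibitor gene of reactive astrocytes on the glial list set beside Thy1. Its level was 152 ± 6.64 CPM in 5XFAD and 11.7 ± 0.808 CPM in WT at 11 months (SD, n = 3 each), and 33.4 ± 9.45 CPM in 5XFAD (n = 3) and 11.2 ± 1.42 CPM in WT (n = 4) at 6 months. The genotype effect at 11 months minus that at 6 months was 2.13 on the log2 scale (adjusted p = 0.00456 by edgeR), the 1 gene of 17483 (0.00572%) called for this difference, against 0.35 ± 0.20 for Thy1.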

How the results depend on the processing

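The genotype effect on Thy1 kept its direction and its call under every alternative run: its log2 fold change was 2.20 to 2.59 at 11 months and 1.88 to 2.25 at 6 months over 8 other settings, and 2.17 to 2.45 and 1.84 to 2.01 when any 1 library was left out. The length difference was -206 to -182 bases on leaving out 1 library (exact permutation p 0.00286 to 0.005). Those p-values are the smallest that the remaining arrangements allow, since every 5XFAD library lay below every WT library. The difference was -192 in effective length, an output of the same quantifier and so not an independent check. The age difference in 5XFAD, near 0 and never called, turned negative with sex as a covariate (-0.15) and in both TPM fits (-0.00306), and ranged from -0.0908 to 0.18 on leaving out 1 library. That in WT ranged from -0.41 to -0.29 and the interaction from 0.24 to 0.51. In 5XFAD, 2 correlations with the glial scores turned to -0.35 and -0.34 without 2 libraries, with deviations still taken from the means of all libraries. Those of WT on other scales are given above.

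Counts of genes called, against 753 at 11 months, 231 at 6 months, 1264 for age in 5XFAD, 649 for age in WT and 1 for the interaction, moved by over 1.5 times as follows. DESeq2 called 384 at 6 months, 2076 and 1811 for age in 5XFAD and WT, and 27 for the interaction. limma on log2(TPM + 1) called 699, 173 and 4 for the last 3 and on log2(TPM + 0.1) 585 and 177 for age. A fit of the compared libraries alone called 443 at 11 months, 2610 for age in 5XFAD and 1 in WT, and sex as a covariate gave 345 in WT. Leaving out 1 library gave 424 to 840 at 11 months (lowest without replicate 3 of 5XFAD), 134 to 269 at 6 months (lowest without replicate 3 of 5XFAD, and 141 to 151 without replicate 2 or 4 of WT or 1 or 2 of 5XFAD), 97 to 1801 for age in 5XFAD (lowest without replicate 3 at 11 months, and 176 to 798 without any other 5XFAD library), 0 to 1921 for age in WT (0 without WT replicate 4 at 6 months, 2 without WT replicate 2 and 1921 without WT replicate 1 at 11 months, and 46 to 417 without WT replicates 1 to 3 or any 5XFAD library at 6 months or 5XFAD replicate 1 or 3 at 11 months) and 1 to 3 for the interaction (3 without replicate 2 of 5XFAD at 11 months). The cause was not tested. No paired analysis was possible because no number in the titles is shared by 2 libraries. Arrangements of 3 or 4 libraries limit exact p-values.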

Other observations

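One relation outside the comparisons, chosen after the values were seen, set Thy1 beside the mean deviation of the 15 pan-neuronal genes within groups. Pearson's r of deviations from group means was 0.72 in the 6 5XFAD libraries (exact permutation p = 0.0833; Spearman's rho 0.77, exact p = 0.111) and 0.87 in the 7 WT libraries (exact p = 0.0278; rho 0.86, exact p = 0.0417). Adjusted over these 2 relations the exact p-values were 0.0833 in 5XFAD and 0.0556 in WT, so neither passed. Scores of the excitatory, layer 5, striatal and oligodendrocyte lists were also computed. The adjustment covers neither those lists nor the choice made after the values were seen. Without the 2 libraries farthest from the Thy1 median r was 0.82 in 5XFAD and 0.89 in WT. Those libraries were picked on Thy1 over both ages, and deviations were still from the means of all libraries. This omission thus cannot show whether r rested on extreme libraries.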
